A study of Yarrowia lipolytica with 8 samples.

Results

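The mevalonate and ergosterol pathway genes described here are 10 genes of *Yarrowia lipolytica*, taken by locus tag from 6394 genes in the expression tables. In pathway order they are ERG13, HMG1, ERG12, ERG8, MVD1, IDI1, ERG20, ERG9, ERG1 and ERG11. The enzyme named by the KEGG orthology annotation fitted the symbol in each case, so 0 genes were left out, and 0 further genes carried the orthology number of one of the 10. They lie on 4 chromosomes, with 1 on chromosome A, 2 on B, 4 on E and 3 on F, and none overlaps a neighbouring gene.

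The pathway joins acetyl-CoA units into mevalonate, turns mevalonate into isoprenoid units, condenses these into farnesyl diphosphate and squalene, and converts squalene into ergosterol, the main sterol of fungal membranes. The same isoprenoid units also feed ubiquinone, dolichol, heme A and the farnesyl groups of proteins. Squalene epoxidation by ERG1 is the first step that uses molecular oxygen, and ERG11, ERG25, ERG3 and ERG5 use it further on; in *Saccharomyces cerevisiae* many ERG genes are known to respond to oxygen and to sterol levels.

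Strain ACA DC 50109, an oleaginous yeast that secretes citric acid, was grown in bioreactors on glucose and glycerol in equal parts in nitrogen-limited medium, and all cells were taken after nitrogen had run out. Cells from a culture with controlled dissolved oxygen tension (pO2) were taken before (pO2-1) and after (pO2-2) glycerol became limiting, and cells from a culture with uncontrolled pO2 likewise before (pO2-UN-2) and after (pO2-UN-3), with 2 replicates each. The sample labels state pO2 control but not the phase, which comes from the study's methods and a table heading; pO2-UN-2 was taken as the sample before limitation because the later one was given as after. Expression is in FPKM, the fragments per kilobase of a gene scaled to the mapped fragments of its library, which allows levels of different genes to be set side by side. The labels only number the replicates, which the study calls biological, so p-values measure the spread between these samples, and whether a transcript was present in fewer cells or at a lower amount per cell cannot be told apart in RNA of whole cultures.

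Before glycerol limitation most of the pathway genes stood at a higher level than after it, in both cultures. The 10 genes together had 2302 and 2293 FPKM in the replicates at controlled pO2 before limitation, and 719 and 709 FPKM after it. Without pO2 control they had 2767 and 3047 FPKM before limitation, and 797 and 696 FPKM after it. The sum thus separated the phases in both cultures. In these FPKM, with no further scaling between libraries, the cultures overlapped after limitation but not before it. Before limitation the most abundant members were ERG11, ERG13 and ERG20 with pO2 control, and ERG1, ERG11 and ERG20 without it. ERG1 alone then held 34.0% and 28.6% of the sum without pO2 control, against 10.4% and 10.5% with it.

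**Figure D1:**
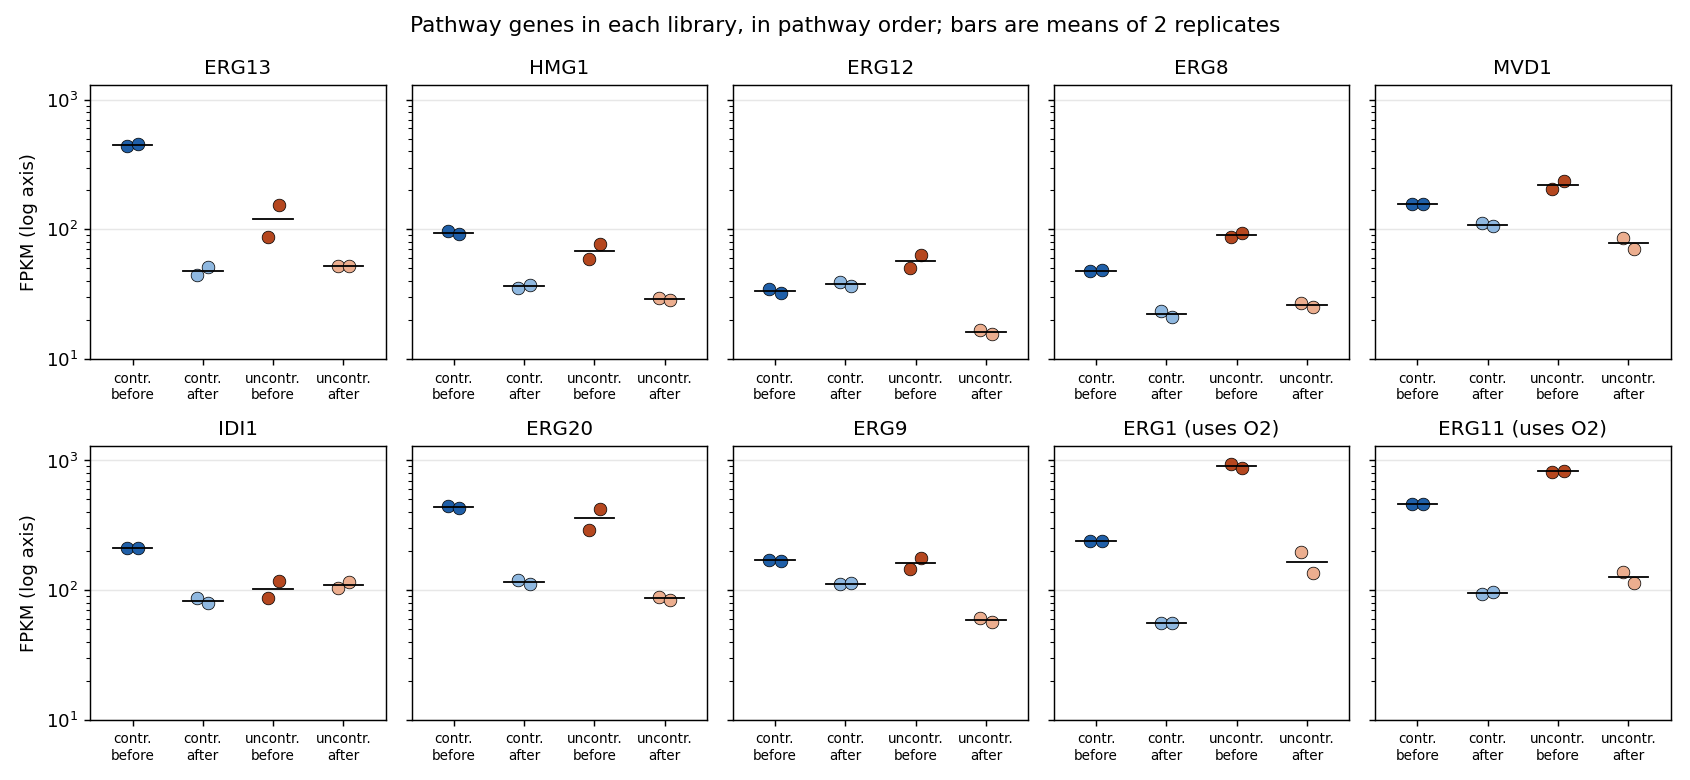
FPKM (log axis) of the 10 pathway genes in each of the 8 libraries, 1 panel per gene in pathway order, with a point per replicate and a bar at the mean of 2 replicates. ERG1 and ERG11 were highest before limitation without pO2 control (872 to 940 and 817 to 828 FPKM), whereas ERG13 was highest before limitation with pO2 control (443 and 457 FPKM).

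A gene was called when its Benjamini-Hochberg adjusted p, from limma on log2(FPKM + 1) over all tested genes, was under 0.05 and its fold at least 2, which is a log2 fold change of at least 1. After glycerol limitation at controlled pO2, 7 of the 10 genes were lower and 0 higher, where 12.7% of all 6218 tested genes were called lower and 22.5% higher. At uncontrolled pO2 9 of the 10 were lower and 0 higher, where 13.4% of 6185 tested genes were called lower and 32.3% higher. The median log2 fold change of the 10 genes was -1.34 with and -1.62 without pO2 control, set beside medians over all tested genes of 0.126 and 0.489. ERG12 at controlled and IDI1 at uncontrolled pO2 were the members whose estimates lay above 0, and neither passed the test. MVD1 and ERG9 at controlled pO2 passed the adjusted p but not the fold minimum. With a log2 minimum of 2, the size that the study uses, 3 members were lower in each culture, beside 4.29% and 5.01% of all tested genes, and 0 were higher, beside 9.52% and 11.3%. With no fold minimum 9 members were lower in each culture, beside 36.0% and 21.5% of all tested genes, and 0 were higher, beside 45.6% and 48.9%.

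**Figure D2:**
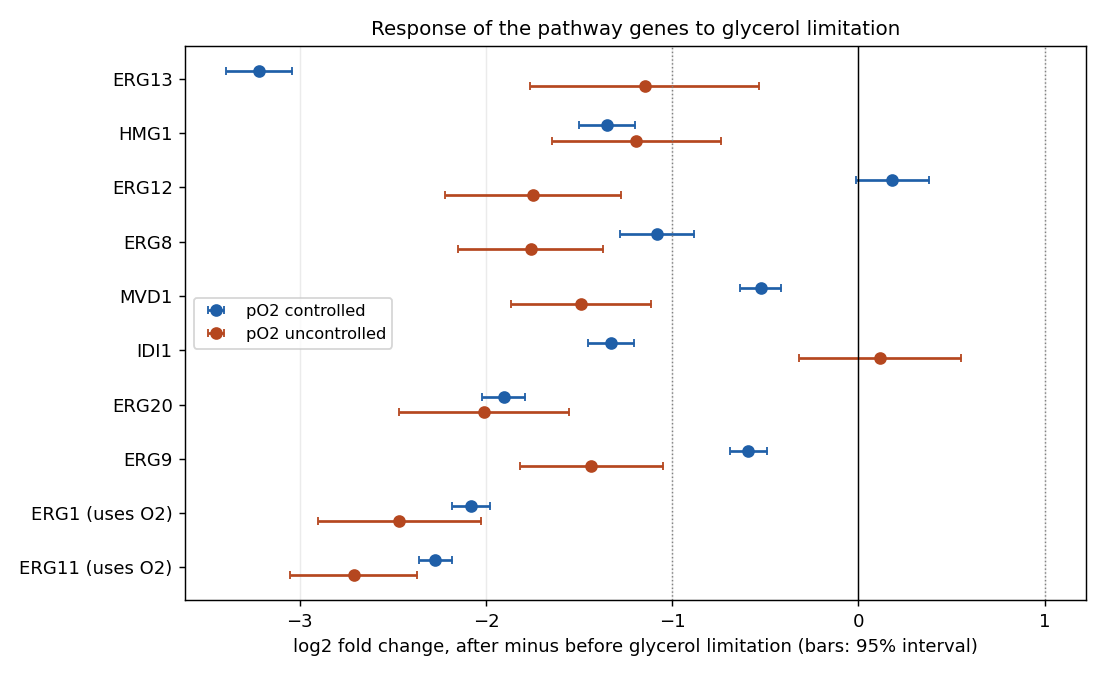
Log2 fold change of FPKM, after minus before glycerol limitation, for each pathway gene at controlled and at uncontrolled pO2, with 95% intervals from limma; dotted lines mark the fold minimum of a call. The estimates of ERG13 (-3.22 and -1.15), ERG12 (0.18 and -1.75) and IDI1 (-1.33 and 0.12) lay furthest apart between the cultures.

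Between the cultures fewer of these genes were called, and in both directions. Before limitation 2 of the 10 genes were higher with pO2 control than without it and 1 was lower, where 30.9% of 6158 tested genes were called higher and 20.6% lower. After limitation 1 gene was higher and 1 lower, where 8.42% of 6209 tested genes were called higher and 6.06% lower. The medians of the 10 genes were -0.20 before and 0.10 after limitation, beside 0.313 and 0.098 over all tested genes. The members were thus called no more often than all genes before limitation, and about as often after it. With a log2 minimum of 2 no member was called in either phase, where 14.4% of all tested genes were higher and 9.18% lower before limitation, and 1.82% and 1.34% after it. With no fold minimum 3 members were higher and 5 lower before limitation, beside 47.2% and 30.9% of all tested genes, and 4 higher and 3 lower after it, beside 28.5% and 21.5%. Each culture stands in a table of its own, so that pO2 control and any other difference between the cultures cannot be told apart, and within a culture glycerol limitation and culture time cannot be told apart.

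**Figure D3:**
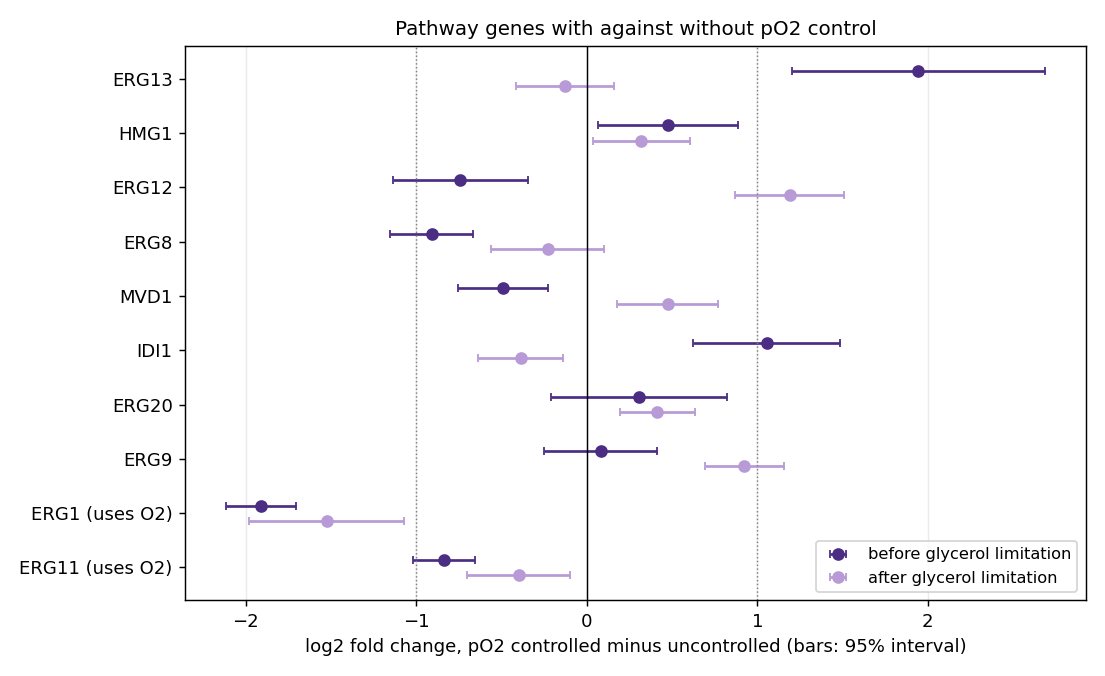
Log2 fold change of FPKM, controlled minus uncontrolled pO2, before and after glycerol limitation, with 95% intervals from limma; dotted lines mark the fold minimum of a call. ERG1 lay below the minimum in both phases (-1.91 and -1.52), ERG13 above it before limitation (1.94) and ERG12 above it after limitation (1.19).

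ERG13 and HMG1 form mevalonate. ERG13 (YALI0_F30481g, chromosome F, 3812286 to 3813626 of the CLIB122 assembly) encodes the synthase of hydroxymethylglutaryl-CoA (HMG-CoA). It had 443 and 457 FPKM at controlled pO2 before limitation, and 44.2 and 51.0 FPKM after it. Without pO2 control it had 87.4 and 155 FPKM before and 52.0 and 51.9 FPKM after limitation. The controlled culture before limitation stood far above the other groups, and the uncontrolled replicates of that phase were themselves 1.77-fold apart. The fall at controlled pO2 was 9.31-fold (log2 -3.22, SE 0.071, adjusted p = 2.5e-07), the largest among the 10 genes in that culture. At uncontrolled pO2 it was 2.22-fold (log2 -1.15, SE 0.26, adjusted p = 0.0059), and without replicate 2 of pO2-UN-2 the log2 value was -0.74 and the call was lost. ERG13 was 3.84-fold higher with pO2 control before limitation (log2 1.94, SE 0.28, adjusted p = 0.0027), and after limitation no difference was found (log2 -0.13, 95% interval -0.41 to 0.16).

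HMG1 (YALI0_E04807g, chromosome E, 539630 to 542629) encodes HMG-CoA reductase, known as the main control point of the pathway. It had 96.7 and 92.4 FPKM before and 35.5 and 37.4 FPKM after limitation at controlled pO2. At uncontrolled pO2 the values were 58.9 and 77.7 FPKM before and 29.5 and 28.6 FPKM after. Phases did not overlap in either culture. HMG1 fell 2.55-fold with pO2 control (log2 -1.35, adjusted p = 4.4e-06) and 2.29-fold without it (log2 -1.19, adjusted p = 0.0012), and the latter was just under the fold minimum without replicate 2 of pO2-UN-2. It was not called between the cultures in either phase, with log2 values of 0.48 before (adjusted p = 0.040) and 0.32 after limitation (adjusted p = 0.063). Both enzymes of mevalonate formation thus fell in both cultures, but only ERG13 was called between the cultures.

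ERG12, ERG8 and MVD1 carry mevalonate to isopentenyl diphosphate in 2 phosphorylations and a decarboxylation, and all 3 had their highest level before limitation without pO2 control. ERG12 (YALI0_B16038g, chromosome B, 2122929 to 2124278), mevalonate kinase, had 34.6 and 32.3 FPKM before and 39.5 and 36.7 FPKM after limitation at controlled pO2. Without pO2 control it had 50.1 and 63.8 FPKM before and 16.8 and 15.5 FPKM after. Its replicates thus hardly moved in one culture and fell clear of each other in the other. The change was 0.18 on the log2 scale with pO2 control (95% interval -0.01 to 0.38, adjusted p = 0.073) and a 3.36-fold fall without it (log2 -1.75, adjusted p = 2.3e-04). Between cultures the sign turned with phase: ERG12 was at -0.74 before limitation (adjusted p = 0.0085, under the fold minimum) and 2.28-fold higher with pO2 control after it (log2 1.19, adjusted p = 0.0016).

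ERG8 (YALI0_E06193g, chromosome E, 715763 to 717019), phosphomevalonate kinase, had 47.6 and 48.6 FPKM before and 23.3 and 21.2 FPKM after limitation at controlled pO2. Its values without pO2 control were 87.8 and 94.5 FPKM before and 27.3 and 25.1 FPKM after. The fall was 2.12-fold with (adjusted p = 4.1e-05) and 3.39-fold without pO2 control (adjusted p = 8.8e-05). Before limitation ERG8 was lower with pO2 control by a log2 value of -0.91 (adjusted p = 7.9e-04), short of the fold minimum. MVD1 (YALI0_F05632g, chromosome F, 836261 to 837424), the decarboxylase that yields isopentenyl diphosphate, had 156.3 and 156.0 FPKM before and 111 and 105 FPKM after limitation at controlled pO2, and 205 and 236 FPKM before and 85.1 and 70.6 FPKM after at uncontrolled pO2. It fell 2.81-fold without pO2 control (log2 -1.49, adjusted p = 1.7e-04). At controlled pO2 the replicates were also separate, with a log2 value of -0.52 (adjusted p = 8.3e-05) under the fold minimum. Between the cultures MVD1 was at -0.49 before and 0.48 after limitation (adjusted p = 0.0085 and 0.022), and neither was called.

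IDI1, ERG20 and ERG9 lead from isopentenyl diphosphate to squalene. IDI1 (YALI0_F04015g, chromosome F, 600953 to 601765), the isomerase that makes dimethylallyl diphosphate, had 210.2 and 209.7 FPKM before and 86.3 and 79.8 FPKM after limitation at controlled pO2. Its uncontrolled values were 86.2 and 117 FPKM before and 103 and 115 FPKM after, so that the phases overlapped there. It fell 2.51-fold with pO2 control (log2 -1.33, adjusted p = 2.2e-06). Without control the estimate was 0.12 (95% interval -0.32 to 0.55, adjusted p = 0.59), and it was -0.27 after median-of-ratios scaling, which sets the libraries to a common median ratio over genes. Before limitation IDI1 was 2.08-fold higher with pO2 control (log2 1.06, adjusted p = 0.0033). That call was lost, at log2 0.69, under median-of-ratios scaling, and at 0.84 without replicate 1 of pO2-UN-2.

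ERG20 (YALI0_E05753g, chromosome E, 641303 to 642337), farnesyl diphosphate synthase, stands at the branch to ubiquinone, dolichol and prenylated proteins. It had 442 and 427 FPKM before and 119 and 111 FPKM after limitation at controlled pO2, and 290.2 and 425 FPKM before and 88.0 and 84.6 FPKM after at uncontrolled pO2. ERG20 fell in both cultures, 3.75-fold with (adjusted p = 3.3e-07) and 4.03-fold without pO2 control (adjusted p = 1.0e-04). The difference between those responses was -0.11 on the log2 scale with a 95% interval from -0.63 to 0.42. ERG9 (YALI0_A10076g, chromosome A, 1016172 to 1017509), squalene synthase, commits farnesyl diphosphate to sterols. It had 170.4 and 169 FPKM before and 111 and 114 FPKM after limitation at controlled pO2, and 144 and 178 FPKM before and 61.1 and 56.5 FPKM after at uncontrolled pO2. The fall without pO2 control was 2.70-fold (adjusted p = 2.2e-04), and with it the log2 value was -0.59 (adjusted p = 2.7e-05), under the fold minimum. Cultures overlapped in ERG9 before limitation, and after it ERG9 was at 0.92 with pO2 control (adjusted p = 0.0013), again short of the minimum.

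ERG1 and ERG11, the 2 oxygen-using enzymes among the 10, were both highest before limitation without pO2 control. ERG1 (YALI0_E15730g, chromosome E, 1882281 to 1883750), squalene epoxidase, had 240.0 and 241 FPKM before and 55.8 and 56.2 FPKM after limitation at controlled pO2. The uncontrolled culture had 940.0 and 872 FPKM before and 196 and 136 FPKM after. No group overlapped another, and the group means spanned 16.2-fold, the widest range of the 10 genes. After limitation ERG1 was 4.23-fold lower than before it with (log2 -2.08, SE 0.040, adjusted p = 1.5e-07) and 5.53-fold lower without pO2 control (log2 -2.47, SE 0.19, adjusted p = 3.4e-05). With pO2 control it was 3.76-fold lower before limitation (log2 -1.91, SE 0.078, adjusted p = 5.5e-05) and 2.88-fold lower after it (log2 -1.52, SE 0.18, adjusted p = 0.0021). It was the only one of the 10 genes called in the same direction between the cultures in both phases. The convergent neighbour of ERG1, malate synthase YALI0_E15708g, ends 269 bp away and had 9.81 and 6.31 FPKM in the group where ERG1 was highest, and 242 to 393 FPKM in the others. Reads are not stated to be counted by strand, and the share of ERG1 fragments that could come from that neighbour was not tested.

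ERG11 (YALI0_B05126g, chromosome B, 705796 to 707367), the lanosterol demethylase of the cytochrome P450 family and the target of azole drugs, had 460.1 and 459.9 FPKM before and 92.8 and 95.9 FPKM after limitation at controlled pO2. At uncontrolled pO2 it had 817 and 828 FPKM before and 138 and 113 FPKM after. The order of the groups was that of ERG1, with smaller steps between the cultures. ERG11 fell 4.84-fold with pO2 control (log2 -2.27, adjusted p = 6.8e-08) and 6.55-fold without it (log2 -2.71, adjusted p = 7.9e-06). Between cultures it was lower with pO2 control by log2 values of -0.84 before (adjusted p = 3.9e-04) and -0.40 after limitation (adjusted p = 0.039). Both lie under the fold minimum, and under median-of-ratios scaling the first was -1.20 and was called.

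Over the 4 groups the 10 genes fell into 2 sets of 5 by where they were highest. ERG13, HMG1, IDI1, ERG20 and ERG9 were highest before limitation at controlled pO2, and ERG12, ERG8, MVD1, ERG1 and ERG11 before limitation at uncontrolled pO2. Of the tested neighbours in these orders, the cultures before limitation did not pass the test for ERG20 (adjusted p = 0.21) and ERG9 (adjusted p = 0.58). The cultures after limitation did not pass it for ERG13 (adjusted p = 0.39), HMG1 and ERG8 (adjusted p = 0.20). Nor did the controlled phases for ERG12 or the uncontrolled phases for IDI1. Among these pairs the replicates overlapped for ERG9 and IDI1 and were separate for the other genes. The replicates of IDI1 also overlapped between its lowest neighbours, pO2-UN-2 and pO2-2, which differ in both culture and phase and were not compared by a test. Group means of IDI1 spanned the narrowest range, 2.53-fold.

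The response to limitation was compared between the cultures directly in a fit of all 8 libraries, as the uncontrolled minus the controlled response. The difference was called more positive in 2 of the 10 genes and more negative in 1, where 25.9% of 6278 tested genes were called more positive and 19.7% more negative. With a log2 minimum of 2 it was 1 and 0 genes, beside 11.8% and 6.85%, and with no minimum 2 and 5 genes, beside 38.1% and 29.1%. ERG13 (2.07, 95% interval 1.32 to 2.82, adjusted p = 7.1e-04) and IDI1 (1.44, 95% interval 0.98 to 1.91, adjusted p = 3.9e-04) fell more with pO2 control. ERG12 (-1.93, 95% interval -2.40 to -1.46, adjusted p = 7.8e-05) fell without it. MVD1 at -0.97, ERG9 at -0.84 and ERG8 at -0.68 had adjusted p of 0.0011, 0.0020 and 0.0054 but stayed under the fold minimum. For HMG1 (0.16, 95% interval -0.30 to 0.61) and ERG1 (-0.39, 95% interval -0.89 to 0.12) the difference did not pass the test, and ERG11 was at -0.44 (adjusted p = 0.026).

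Within a library, ratios of 2 genes do not depend on the scaling of that library. ERG1 over ERG13 was 0.541 and 0.526 at controlled pO2 before limitation and 1.26 and 1.10 after it. Without pO2 control the ratio was 10.8 and 5.63 before and 3.76 and 2.62 after. The epoxidase transcript was thus below that of the synthase in the first group alone, and the uncontrolled libraries all lay above the controlled ones. Against ERG9, the squalene synthase just before it, ERG1 took another course at controlled pO2, with ratios of 1.41 and 1.42 before limitation and 0.504 and 0.493 after it, and it stood at 6.51 and 4.89, then 3.21 and 2.40, without pO2 control. ERG11 over ERG13 was 1.04 and 1.01, then 2.10 and 1.88, with pO2 control, and 9.35 and 5.35, then 2.65 and 2.17, without it. The ratio of ERG1 over ERG11 was 0.521 to 0.602 in the 4 controlled and 1.05 to 1.42 in the 4 uncontrolled libraries, so these 2 genes also differed from each other between the cultures. IDI1 over MVD1 was 1.34 in both replicates and then 0.776 and 0.758 with pO2 control, and took the opposite course, 0.421 and 0.496 and then 1.22 and 1.62, without it.

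**Figure D4:**
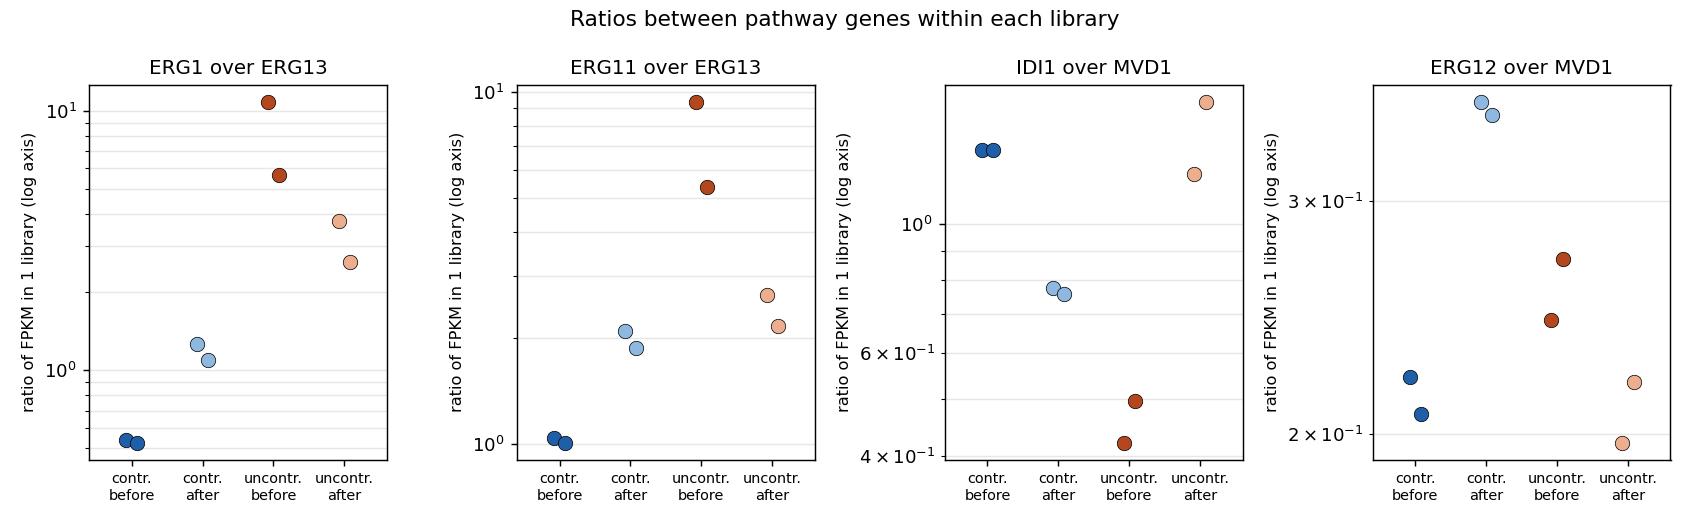
Ratio of the FPKM of 2 pathway genes within each library (log axes, a scale per panel), with a point per replicate. ERG1 over ERG13 lay at 0.526 and 0.541 in the controlled libraries before limitation and between 2.62 and 10.8 in the uncontrolled ones; IDI1 over MVD1 fell after limitation with and rose without pO2 control.

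The later steps, from lanosterol synthase (ERG7) to ergosterol without ERG11, were represented by 11 further genes found by their KEGG orthology numbers and named here after the *S. cerevisiae* enzymes. After limitation 7 of the 11 were lower at controlled and 8 at uncontrolled pO2, beside 12.7% and 13.4% of all tested genes. In either culture 0 were higher, beside 22.5% and 32.3%. Both counts of lower genes include the ERG2 gene YALI0_B17204g, which had 1.58 to 3.13 FPKM after limitation. At uncontrolled pO2 the calls of ERG24 and ERG4 were each lost without 1 library, at -0.95 without replicate 2 of pO2-UN-3 and at -0.92 without replicate 2 of pO2-UN-2. Before limitation 1 of the 11 was higher and 4 were lower with pO2 control, beside 30.9% and 20.6% of all tested genes. After limitation 0 were called, beside 8.42% higher and 6.06% lower of all tested genes. Adjusted p alone passed there for 5 higher and 3 lower, beside 28.5% and 21.5%. The difference of responses was more positive in 1 and more negative in 4, beside 25.9% and 19.7%, and ERG3 among the 4 was at -0.97 without replicate 1 of pO2-2. ERG25, the oxygen-using methylsterol oxidase, had 499 and 498 FPKM before and 121 and 122 FPKM after limitation at controlled pO2. Without pO2 control it had 3221 and 3298 FPKM before and 182 and 153 FPKM after. It was thus 6.53-fold lower with pO2 control before limitation (adjusted p = 2.5e-05), where ERG1 was 3.76-fold lower. ERG6, the methyltransferase that gives fungal sterols their extra side-chain methyl group and uses no oxygen, had 515 and 512, then 267 and 258 FPKM with pO2 control, and 1996 and 2424, then 223.2 and 225 FPKM without it. It too was 4.28-fold lower with pO2 control before limitation (adjusted p = 1.2e-04).

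ERG3 and ERG5, the oxygen-using sterol desaturases, had the same order of group means as ERG11. ERG3 had 302 and 297, then 86.0 and 75.8 FPKM with pO2 control, and 638 and 672, then 86.5 and 82.7 FPKM without it, and was 2.18-fold lower with pO2 control before limitation (adjusted p = 2.0e-04), while the cultures overlapped after it. ERG5 had 556 and 550.4, then 182 and 174 FPKM with, and 1111 and 1099, then 280.2 and 258 FPKM without pO2 control. Its log2 value of -0.997 between the cultures before limitation (adjusted p = 2.3e-04) missed the fold minimum narrowly. ERG4, the reductase of the last step, moved the other way: it had 550.1 and 546 FPKM with and 167 and 199 FPKM without pO2 control before limitation, 2.998-fold higher with control (adjusted p = 2.3e-04), and 110.1 and 105 against 90.5 and 85.2 FPKM after it. ERG7, lanosterol synthase, had 162 and 160.1, then 71.3 and 67.7 FPKM with, and 86.7 and 93.4, then 51.1 and 49.7 FPKM without pO2 control, and was called for its fall at controlled pO2 alone (log2 -1.20, adjusted p = 2.5e-06).

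ERG26 and ERG27 act with ERG25 in removing sterol methyl groups, but did not share its high level before limitation without pO2 control. ERG26 had 121 and 117, then 91.4 and 90.4 FPKM with, and 85.1 and 105, then 85.3 and 73.4 FPKM without pO2 control. ERG27 had 186 and 186, then 105 and 109 FPKM with, and 89.6 and 112, then 64.9 and 69.4 FPKM without it. Neither was called in any comparison. ERG24, a sterol reductase that follows ERG11, had 63.7 and 70.6, then 40.3 and 46.9 FPKM with, and 64.3 and 64.3, then 32.7 and 29.5 FPKM without pO2 control, and was called only for its fall at uncontrolled pO2 (log2 -1.02, adjusted p = 0.0012), the call that was lost without 1 library. The sterol isomerase ERG2 was matched by 2 genes of equal length. YALI0_E32065g had 363 and 366, then 101 and 95.7 FPKM with, and 1016 and 1485, then 119 and 118 FPKM without pO2 control. YALI0_B17204g was low, with 12.4 and 10.7, then 3.13 and 2.49 FPKM with, and 8.07 and 54.9, then 2.25 and 1.58 FPKM without it. The pair may share reads, so their values are uncertain, and the replicates of the second gene at 8.07 and 54.9 FPKM differed more than those of any member.

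**Figure D5:**
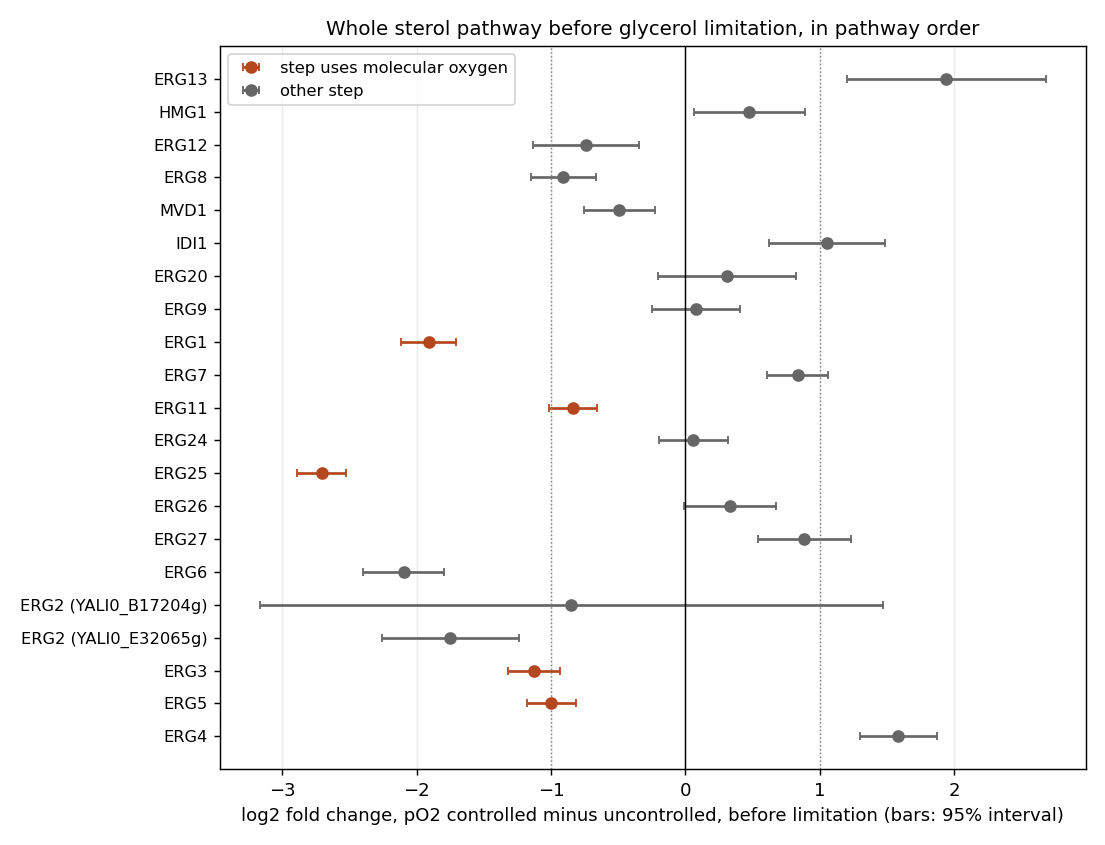
Log2 fold change of FPKM, controlled minus uncontrolled pO2 before glycerol limitation, for 21 sterol pathway genes in pathway order, with 95% intervals from limma; colour marks the 5 steps that use molecular oxygen and dotted lines the fold minimum. The 5 oxygen-using genes lay between -2.71 and -0.84, and the other 16 between -2.10 and 1.94.

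Taking early and late steps as 1 list of 21 genes, the 5 oxygen-using genes had 0 higher and 3 lower calls with pO2 control before limitation, beside 30.9% and 20.6% of all tested genes called, and a median log2 fold change of -1.13. The 16 others had 3 higher and 2 lower calls and a median of 0.19, beside 0.313 over all tested genes. Under median-of-ratios scaling these counts were 0 and 5, and 2 and 4, beside 1451 higher and 1607 lower of all 6158 tested genes. The medians were then -1.49 and -0.17, beside -0.043 over all tested genes, so that the median of the 16 changed sign. All 5 oxygen-using genes were lower with pO2 control before limitation at an adjusted p under 0.05, where 30.9% of all tested genes were lower at that p alone. Of the 16 others, 5 were lower and 6 higher at that p, where 47.2% of all tested genes were higher. Between the cultures after limitation, the oxygen-using genes had 1 lower call, ERG1, and a median of -0.45. The others had 1 higher call, ERG12, and a median of 0.35, where 8.42% of all tested genes were called higher and 6.06% lower. From before to after limitation, all 5 oxygen-using genes were called lower in both cultures. Of the 16 others, 9 were called lower with and 12 without pO2 control, beside 12.7% and 13.4% of all tested genes. Both of these counts include the low ERG2 gene YALI0_B17204g. ERG6 and the ERG2 gene YALI0_E32065g use no oxygen and were called lower with pO2 control before limitation. ERG12, ERG8 and MVD1 use none either and were lower at the adjusted p alone, so the split by oxygen use was not complete.

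Of 14 genes linked to the pathway, 6 were higher and 6 lower with pO2 control before limitation, beside 30.9% and 20.6% of all tested genes, and 1 was higher and 1 lower after it, beside 8.42% and 6.06%. The lower gene after limitation was HEM13, which was at -0.92 and not called without replicate 1 of pO2-UN-3. On limitation 0 were higher and 5 lower at controlled pO2, beside 22.5% and 12.7%, and of 13 tested at uncontrolled pO2 4 were higher and 6 lower, beside 32.3% and 13.4%. Under median-of-ratios scaling the last counts were 2 and 6, beside 1386 higher and 1157 lower of all 6187 tested genes. GGPS1 was then at 0.99 and ARE at 0.84, and the calls of these 2 genes were also lost without replicate 2 of pO2-UN-2. HEM13, the coproporphyrinogen oxidase of heme synthesis, which itself uses oxygen, had 176 and 171, then 48.9 and 49.3 FPKM with pO2 control, and 2673 and 2342, then 110 and 93.6 FPKM without it. It was 14.3-fold lower with pO2 control before limitation (log2 -3.84, adjusted p = 2.4e-05) and fell 24.5-fold on limitation without control. The genes annotated as acetoacetyl-CoA thiolase (ERG10), an activity that feeds ERG13, differed from each other. ERG10 gene YALI0_B08536g had 793 and 806, then 71.7 and 75.9 FPKM with, and 198 and 218, then 76.6 and 69.0 FPKM without pO2 control, and like ERG13 was highest before limitation with pO2 control. ERG10 gene YALI0_E11099g had 192 and 189, then 157 and 139 FPKM with, and 8.20 and 7.78, then 88.5 and 108 FPKM without it, and thus rose on limitation at uncontrolled pO2 (log2 3.46, adjusted p = 9.3e-06). Thiolases of this kind also act in the breakdown of fatty acids and branched amino acids, where the study places this second gene, so that its part in sterol synthesis rests on the orthology number alone. NCP1, the reductase that passes electrons to ERG1 and ERG11, matched 2 genes. YALI0_D04422g had 319 and 310.2, then 112 and 105 FPKM with, and 38.0 and 45.6, then 54.3 and 55.6 FPKM without pO2 control, opposite to ERG1 and ERG11 before limitation. YALI0_C09460g, whose annotation came from the entry of another yeast, had 58.8 and 64.3, then 37.1 and 36.8 FPKM with, and 118 and 156, then 62.8 and 48.1 FPKM without it.

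The branches that leave the pathway at farnesyl diphosphate differed in direction before limitation. RAM1 and RAM2, the subunits of protein farnesyltransferase, were lower with pO2 control: RAM1 had 146 and 149 against 334 and 312 FPKM, and RAM2 had 77.6 and 84.0 against 546 and 409 FPKM. COX10, which farnesylates heme for cytochrome oxidase, had 30.3 and 30.1 against 170 and 166 FPKM, and COQ1, which makes the ubiquinone side chain, had 26.2 and 24.2 against 59.1 and 55.1 FPKM. GGPS1, geranylgeranyl diphosphate synthase, was higher with pO2 control, at 128 and 125 against 27.7 and 16.2 FPKM. Outside these branches, ARE, the sterol acyltransferase that stores sterol as ester, was also higher with pO2 control, at 90.6 and 79.7 against 28.9 and 19.1 FPKM. RER2, the chain synthase of dolichol, matched YALI0_C18799g, called only for its rise on limitation at uncontrolled pO2 from 53.2 and 54.7 to 165 and 168 FPKM, and for the difference of responses, a call lost at 0.93 without replicate 2 of pO2-1 and at 0.81 under median-of-ratios scaling. Its second match, YALI0_D17556g, stayed at or under 5.02 FPKM in all libraries, with calls that rest on few fragments.

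The genes whose course over the 8 libraries was most like that of ERG1, among 5825 genes with at least 10 FPKM in 2 libraries and by Pearson correlation of log2(FPKM + 1), were YALI0_F24937g (0.998), the glucan glucosidase gene YALI0_B03564g (0.995) and YALI0_F11605g (0.995). For ERG11 they were YALI0_B23100g (0.997), the mannosidase gene YALI0_F18722g (0.996) and YALI0_F20306g (0.996), annotated as a subunit of the mitochondrial ATP synthase. Among the 21 sterol pathway genes, ERG5 (0.970), ERG25 (0.954) and ERG8 (0.951) were closest to ERG1, at places 48, 102 and 109 of the 5825 genes. ERG3 (0.990), ERG5 (0.986) and ERG8 (0.980) were closest to ERG11, at places 9, 14 and 29. ERG1 and ERG11 correlated at 0.920 with each other. These values describe 8 libraries in 4 groups of replicates, which share culture and phase.

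Depth was even across libraries, at an estimated 5090000 to 5410000 fragments, a ratio of 1.06, and the members had an estimated 104 to 6842 fragments each, taken from the steps between low FPKM values. With pO2 control the replicates of the members differed at most 1.15-fold, and over all genes by a mean chi-square of 1.21 and 1.28 per gene, near counting noise. Without it the members differed up to 1.77-fold before and 1.44-fold after limitation, with mean chi-squares of 21 and 17.1. The comparisons between the cultures and the difference of responses assume an equal spread in both cultures. Their intervals and adjusted p thus rest on a mix of unequal spreads. In pO2-UN-2, 9 of the 10 members were higher in replicate 2, and in pO2-UN-3, 9 of the 10 were higher in replicate 1. Median-of-ratios size factors over all genes ran the other way, at 0.828 and 0.797 in pO2-UN-2 and 1.04 and 1.09 in pO2-UN-3. What part this direction of the members had in the results was not tested beyond leaving out each library.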

How the data were processed

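RNA-seq of 8 libraries, 2 in each of 4 groups, was used. The authors deposited FPKM per gene and library, which Cufflinks estimated from paired-end reads that TopHat2 had placed on the CLIB122 genome; versions are not given in the sources used here, and no scaling beyond mapped fragments is stated. Of 6394 genes, 6363 were in both deposited tables, and a gene missing from one was set to 0 there. Genes with at least 1 FPKM in at least 2 libraries of a fit were tested with limma 3.58.1 in R 4.3.3 (variance trend, no block) on log2(FPKM + 1), with Benjamini-Hochberg adjustment over all tested genes, a call at an adjusted p under 0.05 and a fold of at least 2, and 2 residual degrees of freedom (4 for the difference of responses). A permutation of 2 against 2 libraries cannot go below p = 0.333 (two-sided). Depth was estimated from the steps between low FPKM values. Tables and figures used Python 3.11.15, pandas 2.3.3, numpy 2.4.6 and matplotlib 3.10.9; the code was tested on simulated data.

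All members were named with their values, as were all later sterol genes, those of the other linked genes called in any comparison, and the 3 genes most like ERG1 and ERG11. The linked genes were found by 23 KEGG orthology numbers, 2 of which matched 0 genes. The members and lists were chosen with earlier results of these data known. Alternatives were median-of-ratios scaling, other constants, filters and fold minimums, no variance trend, all libraries in 1 fit, a replicate block and leaving out each library. Gene positions are those of the deposited tables.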

Additional observations from a re-analysis of the deposited data

Results flagged for a closer look

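The response to glycerol limitation differed between the cultures, by a test of the difference itself in a limma fit of all 8 libraries, for 3 of the 10 genes. For ERG13 the uncontrolled minus the controlled response was 2.07 on the log2 scale (adjusted p = 7.1e-04), since the fall was -3.22 with and -1.15 without pO2 control. For IDI1 the difference was 1.44 (adjusted p = 3.9e-04), with a fall of -1.33 at controlled pO2 and a value of 0.12 at uncontrolled pO2 that did not pass the test. For ERG12 it was -1.93 (adjusted p = 7.8e-05), with 0.18 at controlled and -1.75 at uncontrolled pO2. Over all 6278 tested genes 25.9% were called more positive and 19.7% more negative. No test for single libraries that stand apart was possible with 2 replicates in a group.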

How the results depend on the processing

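The pathway genes have 2 replicates a group, no fragment counts and no scaling across the tables, so calls close to the fold minimum and the pO2 comparison before limitation are the least firm. Of 50 results for single members (10 genes in 4 comparisons and the difference of responses), 37 kept call and direction in every setting that kept the fold minimum. The labels do not state whether equal replicate numbers pair the samples. Deviations of samples with the same number correlated at -0.015, -0.083, -0.002 and 0.019 over 5762 genes. These values cannot show whether samples were paired, since the replicates with pO2 control differed little beyond counting noise. The fit with a replicate block changed the call of 0 of the 50.

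Median-of-ratios scaling moved the median of all genes by -0.144, -0.365, -0.356 and -0.123 (limitation at controlled and uncontrolled pO2, pO2 control before and after limitation) and by -0.227 for the difference of responses. The share of higher calls among all calls went from 64.0% to 56.4%, 70.7% to 54.5%, 60% to 47.4%, 58.2% to 44.2% and 56.8% to 47.4%. The medians of the 10 genes became -1.48 and -2.003 for limitation, and -0.57 and -0.03 for pO2 control before and after it. With pO2 control before limitation 1 of the 10 genes was higher and 4 were lower, beside 1451 and 1607 of all 6158 tested genes. ERG12 at -1.10, ERG8 at -1.27 and ERG11 at -1.20 were added to the lower genes. For 3 of the 10 genes the difference of responses was more negative, beside 1511 of 6264 tested genes (MVD1 at -1.21 and ERG9 at -1.08 were added). Signs turned for limitation at uncontrolled pO2 in IDI1 (-0.27), COQ1 (-0.11) and COQ2 (-0.13), for pO2 control before limitation in ERG20 (-0.06), ERG9 (-0.29), ERG24 (-0.30) and ERG26 (-0.03), after limitation in ERG10 gene YALI0_B08536g (-0.10) and RAM1 (-0.10), and for the difference of responses in HMG1 (-0.08), ERG26 (-0.10) and ERG27 (-0.02). None of these was called in the unscaled values.

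A log2 fold minimum of 2 left 3 members lower in each limitation comparison, beside 4.29% and 5.01% of all tested genes. It left 0 higher and 0 lower in each pO2 comparison, beside 14.4% and 9.18% before limitation and 1.82% and 1.34% after it. The difference of responses was then more positive in 1 member and more negative in 0, beside 11.8% and 6.85%. No fold minimum gave 9 members lower in each limitation comparison, beside 36.0% and 21.5% of all tested genes. For pO2 control it gave 3 higher and 5 lower before limitation, beside 47.2% and 30.9%. After limitation it gave 4 higher and 3 lower, beside 28.5% and 21.5%. The differences were then more positive in 2 and more negative in 5, beside 38.1% and 29.1%.

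Leaving out 1 library at a time, members lower at controlled pO2 stayed 7 and at uncontrolled pO2 ranged from 7 to 9 (7 without replicate 2 of pO2-UN-2), members higher before limitation from 1 to 2 (1 without replicate 1 of pO2-UN-2), and more negative differences from 1 to 2 (2 with MVD1, without replicate 2 of pO2-2 or replicate 1 of pO2-UN-2 or pO2-UN-3). The remaining counts did not move. The medians ranged from -1.36 to -1.32, -1.71 to -1.48, -0.33 to -0.08 and 0.06 to 0.17. Signs turned for uncalled values only. For limitation at uncontrolled pO2, IDI1 ranged from -0.10 to 0.33. For pO2 control before limitation, ERG9 ranged from -0.07 to 0.23, ERG24 from -0.01 to 0.13 and ERG2 gene YALI0_B17204g from -2.16 to 0.46. After limitation, ERG3 ranged from -0.16 to 0.02 and ERG10 gene YALI0_B08536g from -0.05 to 0.10, with -0.02 in between. In the difference of responses, HMG1 ranged from -0.04 to 0.35, ERG20 from -0.38 to 0.17, ERG26 from -0.02 to 0.29 and the ERG2 gene from -2.55 to 0.07. The extremes of IDI1, ERG9, HMG1, ERG20, ERG26 and the ERG2 gene came from leaving out a replicate of pO2-UN-2. The cause of these turns was not tested. In groups left with 1 library, the lone sample is assumed to vary like the other group.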
